A study of Mus musculus with 22 samples.

Results

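MHC class I antigen presentation was followed through 9 genes in the hippocampal CA1 region of female mice. The genes were the heavy chains H2-K1 and H2-D1, the light chain B2m, the peptide transporter subunits Tap1 and Tap2, the loading factor Tapbp, and the immunoproteasome subunits Psmb8, Psmb9 and Psmb10. They were chosen by name, and all 9 were found among the 23361 genes of the expression matrix. Each of the 22 libraries came from 1 mouse. Mice were fed a normal diet ad libitum (AL) or a calorie-restricted (CR) diet with less carbohydrate from young adulthood on, and CA1 was dissected at 5 months (5 AL and 5 CR mice) or 15 months (6 AL and 6 CR mice). All were wild-type Swiss Webster x DBA/C57BL6 F1 mice, a cross with an outbred stock whose animals are not genetically identical, while their reads were aligned to the single mm10 reference. The H2 haplotype of each mouse is not given in the sources used here. The comparisons ask how expression differed between 5 and 15 months under each diet, and between the diets at each age. Mice were perfused before dissection, and a CA1 dissection holds neurons, glia and vessels together, so that fewer cells of a type and less RNA per cell cannot be told apart.

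Class I molecules carry short peptides from proteins made inside a cell to its surface, where CD8 T cells read them. Interferon induces immunosubunits that take the place of the standard catalytic subunits of the proteasome, the TAP transporter moves the resulting peptides into the endoplasmic reticulum, and tapasin holds the empty heavy chain with its light chain beside TAP until a peptide binds. In the brain, class I expression is low in the healthy adult compared with lymphoid organs, microglia and endothelium are known sources, and neuronal class I has been linked to the pruning and plasticity of synapses.

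In GRCm38, which has the coordinates of mm10, 7 of the 9 genes lie in the major histocompatibility complex on chromosome 17. From low to high coordinate they are Tapbp (chr17:33915899-33929292, plus strand), H2-K1 (chr17:33996017-34000347, minus strand), Psmb9 (chr17:34181987-34187764, minus strand), Tap1 (chr17:34187553-34197225, plus strand), Psmb8 (chr17:34197721-34201454, plus strand), Tap2 (chr17:34203527-34216321, plus strand) and H2-D1 (chr17:35262730-35267499, plus strand). B2m is on chromosome 2 (chr2:122147686-122153083, plus strand) and Psmb10 on chromosome 8 (chr8:105935735-105938444, minus strand). All are annotated as protein coding. Values are gene totals over the exons of the authors' annotation, which may differ from the GENCODE exons used here.

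The promoters of the light chain and of the classical heavy chains are shown because the windows of these 3 genes all held the NF-kB, TGACG and CCAAT motifs. The sequences are from RefSeq (GRCm38.p6) and read 5′ to 3′ on the strand of the gene. B2m covers chr2:122147543-122147643 (plus strand), H2-K1 covers chr17:34000354-34000463 (minus strand), and the 30 bases of H2-D1 are chr17:35262918-35262947 (plus strand).
B2m: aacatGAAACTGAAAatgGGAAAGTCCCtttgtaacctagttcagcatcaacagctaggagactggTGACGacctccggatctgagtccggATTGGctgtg
H2-K1: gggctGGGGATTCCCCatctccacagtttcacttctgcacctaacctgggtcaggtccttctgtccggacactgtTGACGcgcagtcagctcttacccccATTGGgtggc
H2-D1: gggctGGGGATTCCCCatctcctcagtttc
Capitals mark motif matches. In B2m they are, in order, the interferon-stimulated response element motif, the NF-kB motif read on the other strand, TGACG, and CCAAT also read on the other strand. In H2-K1 they are the NF-kB motif (2 overlapping matches), TGACG and CCAAT on the other strand, and in H2-D1 the same NF-kB matches, its TGACG and CCAAT matches lying beyond the 30 bases shown. The H2-D1 stretch lies before the RefSeq start but inside the longer GENCODE gene.

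Promoter windows were found for 8 of the 9 genes, all but Tap2, and the 250 bases before each start were searched on both strands. CCAAT was present in 6 of the 8 windows, against 33.8% of 32851 windows of all genes, and TGACG in 5 of the 8, against 17.8%. The NF-kB motif was found in B2m, H2-K1 and H2-D1 (7.25% of all windows), the interferon-stimulated response element motif in B2m (2.98%), and TTCNNNGAA in Psmb8 (7.02%). Psmb10 had none of the 5 motifs in its window. Windows of H2-K1 and H2-D1 shared 166 of 190 aligned bases (87.4%). Tap1 and Psmb9 are read in opposite directions from RefSeq starts 226 bases apart, so their windows overlap by 275 bases. Their CCAAT and TGACG matches are the same bases, so each of these sites enters the counts above once for either gene. A match is a description of the letters only.

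The level of each gene is given in FPKM (mapped fragments scaled to transcript length and to library size), which can be compared between genes because it is per length. Averaged over all 22 mice, the order was B2m (77.3 FPKM), Psmb10 (27.8), H2-D1 (16.2), Tapbp (11.9), H2-K1 (8.59), Tap2 (5.59), Psmb8 (3.12), Psmb9 (2.76) and Tap1 (1.72). B2m was above Psmb10, Tap2 above Psmb8 and Psmb9 above Tap1 in 22 of 22 mice. The order was less fixed for Psmb8 over Psmb9 (14 of 22 mice), H2-D1 over Tapbp (16 of 22) and H2-K1 over Tap2 (17 of 22). The light chain was thus the most abundant of the 9 mRNAs and the transporter subunit Tap1 the least abundant.

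**Figure D1:**
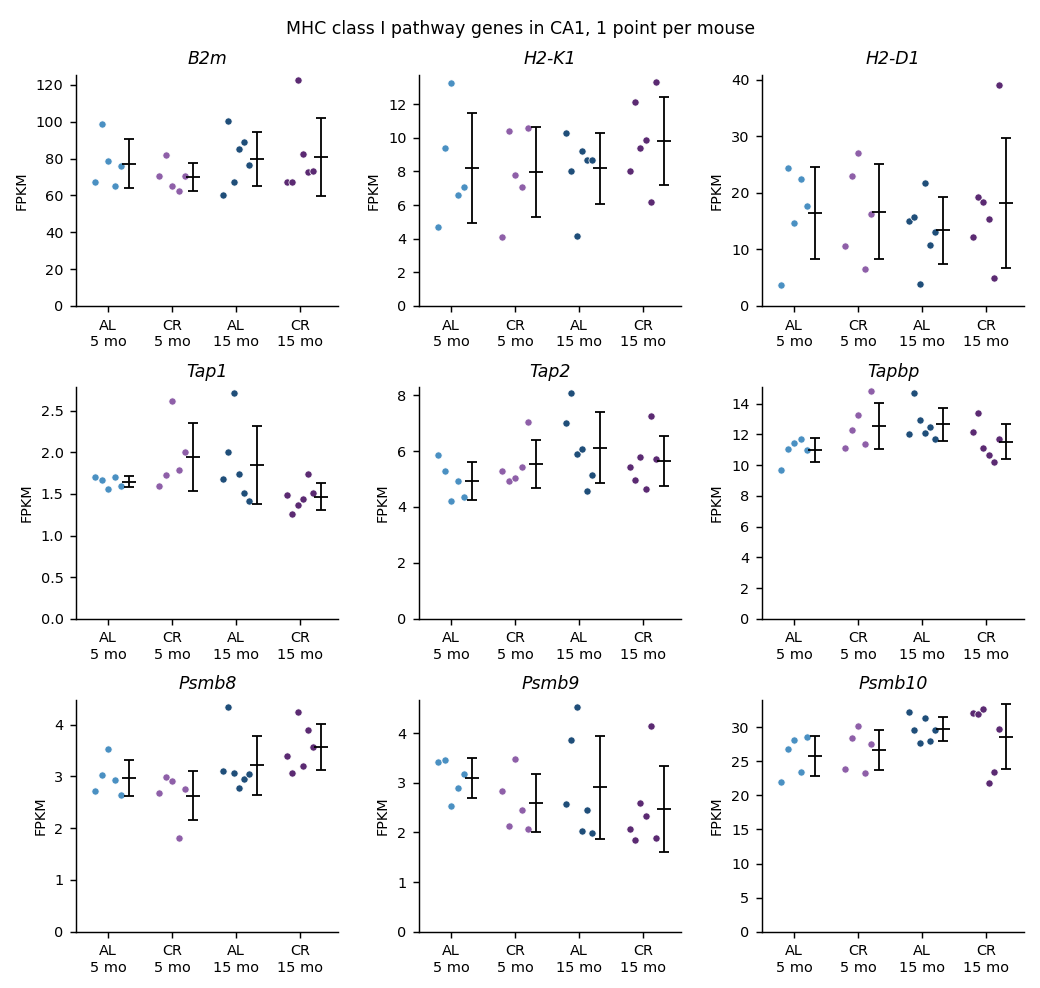
FPKM of the 9 genes in CA1 (y axes, from 0), 1 point per mouse, for AL and CR mice at 5 and 15 months (5, 5, 6 and 6 mice); the black bars are the group mean with SD. H2-D1 spans 3.69 to 39.2 FPKM and overlaps in all groups, while Tapbp in AL mice and Psmb8 in CR mice are the panels whose 5-month and 15-month points do not overlap.

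No member passed the test across genes in any comparison. Of 16978 genes tested with limma, 20.6% were called between AL mice at 15 and 5 months (Benjamini-Hochberg adjusted p under 0.05), against 0 of 9 members (2 at an unadjusted p under 0.05, against 35.2% of all genes). Between CR mice at 15 and 5 months 3.36% of all genes were called, against 0 of 9 members (2 unadjusted, against 18.0%). Comparing the diets at 15 months, 0.742% were called, against 0 of 9 members (1 unadjusted, against 17.1%). At 5 months 0% were called between the diets, and 1 member was under 0.05 unadjusted, against 4.65% of all genes. For the difference between the age effects of CR and AL mice (the age by diet interaction) 0% were called, with 2 members under 0.05 unadjusted against 7.66%. The median log2 fold change of the members was 0.10 with age in AL mice, 0.05 with age in CR mice, -0.07 for CR over AL at 15 months and 0.05 at 5 months, beside medians of 0.00 over all genes in each.

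**Figure D2:**
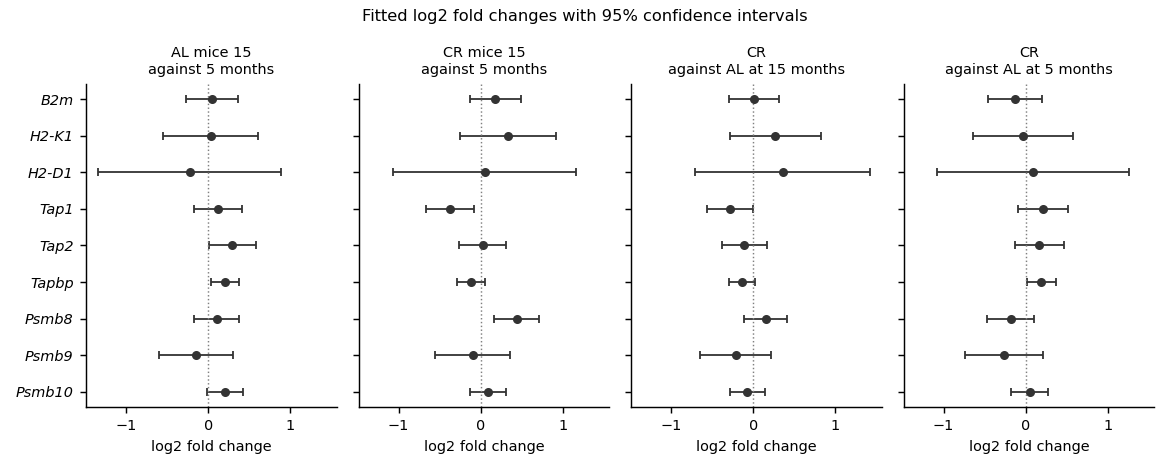
Fitted log2 fold changes (x axes, log2(FPKM + 0.1) scale) of the 9 genes with 95% confidence intervals from limma, in the 4 comparisons between groups. The interval of H2-D1 is the widest, from -1.35 to 0.89 with age in AL mice, and before adjustment over all genes those for age lie above 0 for Tap2 and Tapbp in AL mice and for Psmb8 in CR mice, and below 0 for Tap1 in CR mice.

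The heavy chains bind the peptide and face the T cell. H2-K1 was at 4.72, 9.37, 13.3, 6.59 and 7.10 FPKM in the AL mice at 5 months and at 4.08, 10.4, 7.82, 7.07 and 10.6 FPKM in the CR mice of that age. At 15 months it ran from 4.15 to 10.3 FPKM (median 8.70) in AL mice and from 6.19 to 13.3 FPKM (median 9.64) in CR mice. All groups overlapped. At 15 months AL mice averaged 8.19 ± 2.11 FPKM and CR mice 9.83 ± 2.61 FPKM (SD, n = 6 each), a log2 difference of 0.27 (SE 0.27, 95% interval -0.29 to 0.83, limma adjusted p = 0.631). With age H2-K1 differed by 0.03 on the log2 scale in AL mice (SE 0.28) and by 0.33 in CR mice (SE 0.28, limma adjusted p = 0.572).

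H2-D1 was the most variable member. Its values were 3.69, 24.3, 14.6, 22.4 and 17.7 FPKM in AL mice and 10.7, 22.98, 27.0, 6.56 and 16.3 FPKM in CR mice at 5 months. At 15 months they ran from 3.83 to 21.8 FPKM (median 14.0) in AL mice and from 4.87 to 39.2 FPKM (median 16.8) in CR mice. Each group held mice that differed by at least 4.12-fold, and the lowest and highest of all 22 mice differed by 10.6-fold. Within groups the SD was 0.94 on the log2 scale, above that of 98.4% of the 3421 genes within 1.5-fold of its mean level, whose median SD was 0.16. H2-K1 had a within-group SD of 0.49, above 92.8% of 3010 such genes, and B2m 0.26, above 83.4% of 1207, while the other 6 members lay between the 22.5th and 69.3rd percentiles. No fold change of H2-D1 between groups could therefore be set apart from 0: CR over AL at 15 months was 0.36 on the log2 scale with a 95% interval of -0.70 to 1.43.

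The heavy chain genes are near copies, and the deposited values divide reads that map to several of them, so that the split between H2-K1, H2-D1 and their relatives is uncertain. The part of H2 haplotype in the values of the heavy chains, classical and nonclassical, was not tested. Nor was its part in the values of Tapbp, Psmb9, Tap1, Psmb8 and Tap2, which lie in the same complex, or in correlations between these genes and the heavy chains. H2-D1 exceeded H2-K1 in 18 of 22 mice, at a ratio from 0.782 to 3.46 (median 1.57). Their log2 levels rose and fell together over the 22 mice (r = 0.70, permutation p = 0.00052, adjusted over 36 member pairs 0.0155), but by rank the relation did not pass (rho = 0.56, adjusted permutation p = 0.142). Within groups r was 0.72, and without the 2 mice farthest from the median of H2-K1 it was 0.66. H2-K1 ran against Psmb9 (r = -0.66, adjusted permutation p = 0.0155, rho = -0.66, adjusted permutation p = 0.0392), with r = -0.66 within groups and -0.64 without the 2 farthest mice. Of the 36 pairs this was the only one past the threshold by both measures.

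**Figure D3:**
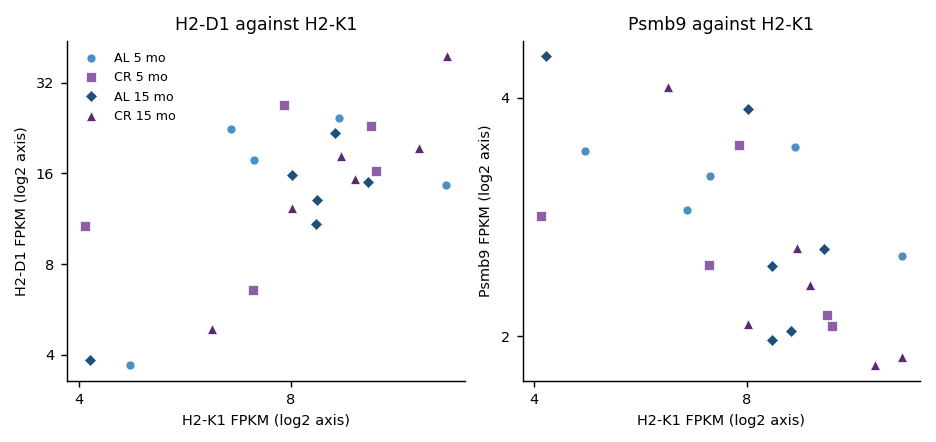
FPKM of H2-D1 (left) and Psmb9 (right) against FPKM of H2-K1 on log2 axes, 1 point per mouse, with colour and shape for the 4 groups. H2-D1 rises with H2-K1 (r = 0.70) and Psmb9 falls (r = -0.66), with mice of all 4 groups mixed along both trends.

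B2m, the light chain that every class I heavy chain needs to reach the surface, was more even. It was at 67.5, 98.8, 78.5, 65.3 and 75.8 FPKM in AL and at 70.6, 82.0, 65.3, 62.2 and 70.6 FPKM in CR mice at 5 months. In older mice it ran from 60.2 to 101 FPKM (median 80.8) in AL mice and from 67.1 to 122 FPKM (median 73.1) in CR mice. The groups overlapped throughout, and the means at 15 months were 79.8 ± 14.8 FPKM in AL and 81.0 ± 21.1 FPKM in CR mice (SD, n = 6 each). B2m differed by 0.01 on the log2 scale between these groups (95% interval -0.29 to 0.31).

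The transporter and loading genes were more even between mice than the heavy chains, and Tapbp had the smallest within-group SD of the 9 members (0.13 on the log2 scale). Tap1, a TAP subunit, was at 1.70, 1.67, 1.56, 1.71 and 1.59 FPKM in AL mice and 1.59, 1.73, 2.62, 1.78 and 2.004 FPKM in CR mice at 5 months. At 15 months it ran from 1.41 to 2.71 FPKM (median 1.71) in AL mice and from 1.26 to 1.74 FPKM (median 1.46) in CR mice. All 6 CR mice at 15 months were below the 5-month CR median, with overlap, and the log2 fold change of -0.37 (SE 0.14) did not pass over all genes (limma adjusted p = 0.159, exact permutation p = 0.00866, two-sided). In AL mice Tap1 differed by 0.12 on the log2 scale with age (SE 0.14). The difference between these age effects was -0.49 (SE 0.20, limma adjusted p = 0.629).

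Tap2, the partner subunit, was at 5.85, 5.28, 4.23, 4.92 and 4.37 FPKM in AL mice and 5.27, 4.93, 5.03, 5.43 and 7.05 FPKM in CR mice at 5 months. At 15 months the range was 4.58 to 8.09 FPKM (median 5.99) in AL and 4.65 to 7.24 FPKM (median 5.59) in CR mice. Groups overlapped, and with age in AL mice Tap2 differed by 0.29 on the log2 scale (SE 0.14, limma adjusted p = 0.133, exact permutation p = 0.0823). With the region score described below as a covariate it was 0.04. GENCODE genes overlap 14.1% (Gm15821) and 4.36% (Gm20496) of the exonic bases of Tap2, and the library kit does not mark strand.

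Tapbp encodes tapasin, which tethers the heavy chain to TAP. It was at 9.67, 11.0, 11.4, 11.7 and 11.0 FPKM in AL mice and 11.1, 12.3, 13.3, 11.4 and 14.8 FPKM in CR mice at 5 months. At 15 months it ran from 11.7 to 14.7 FPKM (median 12.3) in AL mice and from 10.2 to 13.4 FPKM (median 11.4) in CR mice. Every AL mouse at 15 months was above every AL mouse at 5 months, an upward separation seen in 7.27% of all genes, with a log2 fold change of 0.21 (SE 0.08, exact permutation p = 0.00433, limma adjusted p = 0.0799). The gap was narrow, from 11.69 FPKM in the highest younger mouse to 11.73 FPKM in the lowest older one. Shifting libraries to a common median moved log2 fold changes in this comparison by a median of 0.046, and the separation was not tested under that shift. In CR mice the log2 fold change with age was -0.12 (SE 0.08, limma adjusted p = 0.465), and the difference between the age effects was -0.33 (SE 0.12, limma adjusted p = 0.621). CR over AL was 0.19 at 5 months (SE 0.09, limma adjusted p = 1) and -0.14 at 15 months (SE 0.08, limma adjusted p = 0.385). In GENCODE, Gm19412 shares 24.9% and Zbtb22 4.11% of the exonic bases of Tapbp.

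The immunosubunits replace the constitutive subunits in the proteasome core and alter the cuts it makes. Psmb8 (LMP7) was at 2.72, 3.02, 3.53, 2.93 and 2.64 FPKM in AL mice and 2.68, 2.99, 2.90, 1.81 and 2.76 FPKM in CR mice at 5 months. The 15-month values ran from 2.79 to 4.35 FPKM (median 3.06) in AL mice and from 3.07 to 4.25 FPKM (median 3.48) in CR mice. All 6 CR mice at 15 months lay above all 5 CR mice at 5 months, as in 1.15% of all genes, and the means were 3.56 ± 0.44 FPKM (SD, n = 6) and 2.63 ± 0.47 FPKM (SD, n = 5). The log2 fold change was 0.44 (SE 0.13, exact permutation p = 0.00216, the smallest this design allows), with a limma adjusted p of 0.0680 over all genes. It became a call without AL mouse 1 at 15 months, which enters through the shared spread (0.44, limma adjusted p = 0.0423), and in no other fit. In AL mice Psmb8 differed by 0.10 with age (SE 0.13), and the difference between the age effects was 0.34 (SE 0.18, limma adjusted p = 0.678). In GENCODE, Gm20496 shares 14.7% of the exonic bases of Psmb8.

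Psmb9 (LMP2) was at 3.42, 3.47, 2.52, 2.89 and 3.18 FPKM in AL mice and 2.83, 2.13, 3.49, 2.46 and 2.06 FPKM in CR mice at 5 months. In older mice it ran from 1.98 to 4.51 FPKM (median 2.52) in AL mice and from 1.84 to 4.13 FPKM (median 2.19) in CR mice. Groups overlapped in every comparison, with log2 fold changes between -0.26 and -0.10 in the 4 comparisons. In GENCODE, Psmb9 and Tap1 share 212 exonic bases, which are 5.79% of those of Psmb9 and 3.87% of those of Tap1. Where the authors' annotation held these exons, reads there could not be told apart without strand. By their RefSeq starts these genes do not overlap. Their levels correlated over the 22 mice (r = 0.62, adjusted permutation p = 0.0221, rho = 0.52, adjusted permutation p = 0.167), and r was 0.44 without the 2 mice farthest from the median of Tap1.

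Psmb10 (MECL-1) was at 21.98, 26.8, 28.2, 23.4 and 28.6 FPKM in AL mice and 23.9, 28.4, 30.1, 23.2 and 27.5 FPKM in CR mice at 5 months. Older mice ran from 27.7 to 32.2 FPKM (median 29.6) in AL mice and from 21.8 to 32.7 FPKM (median 30.8) in CR mice. With age in AL mice the log2 fold change was 0.21 (SE 0.11, exact permutation p = 0.0195, limma adjusted p = 0.162), and all 6 older mice were above the younger median, with overlap. In CR mice it was 0.09 (SE 0.11).

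The balance between an immunosubunit and the constitutive subunit it replaces was computed within each mouse. Psmb8 was set against Psmb5 (the chymotrypsin-like subunit), Psmb9 against Psmb6 (caspase-like) and Psmb10 against Psmb7 (trypsin-like), giving 12 tests over the 4 comparisons. Psmb8 amounted to 1.96, 1.88, 2.16, 2.23 and 1.72% of Psmb5 in AL mice at 5 months, and to 2.71 to 4.82% (median 2.99%) at 15 months. In CR mice it was 2.01, 1.89, 1.80, 1.40 and 1.59% at 5 months and 2.51 to 3.84% (median 2.997%) at 15 months. In both diets every older mouse was above every younger one.

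On the log2 scale the Psmb8 to Psmb5 ratio rose with age by 0.67 in AL mice (SE 0.14) and by 0.77 in CR mice (SE 0.13), each with an exact permutation p of 0.00216 (adjusted over 12 tests 0.00866). Relative to Psmb5, however, 49.3% of all genes separated upward without overlap with age in AL mice and 7.15% in CR mice. Psmb5 itself fell with age in AL mice, from 150 ± 14.0 FPKM (SD, n = 5) to 101 ± 7.92 FPKM (SD, n = 6), by 0.57 on the log2 scale (SE 0.10, limma adjusted p = 0.000661). In CR mice its log2 fold change was -0.34 (limma adjusted p = 0.0552).

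Psmb10 amounted to 15.5, 17.2, 17.0, 16.4 and 17.4% of Psmb7 in AL mice at 5 months and to 19.7 to 25.7% (median 22.1%) at 15 months, again without overlap. The log2 difference was 0.42 (SE 0.07, exact permutation p = 0.00216, adjusted over 12 tests 0.00866), and 14.6% of all genes separated upward relative to Psmb7 in the same way. In CR mice the ratio was 17.5, 18.3, 17.2, 16.4 and 16.0% at 5 months and 16.2 to 25.6% (median 19.1%) at 15 months, with overlap (log2 difference 0.24, SE 0.12, exact permutation p = 0.106). Psmb9 ranged from 2.18 to 6.52% of Psmb6 and overlapped in all comparisons, and none of the 6 diet comparisons of the 3 ratios passed.

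**Figure D4:**
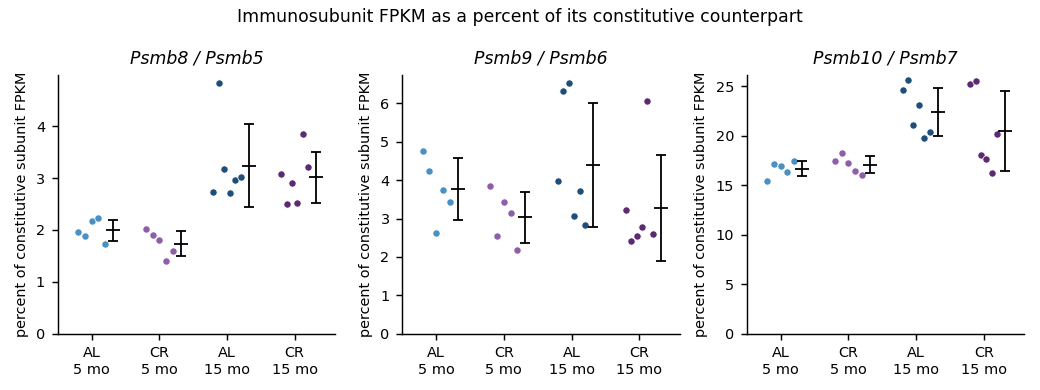
FPKM of each immunosubunit as a percent of the FPKM of its constitutive counterpart (y axes, from 0), 1 point per mouse in the 4 groups, with the group mean and SD in black. Psmb8 over Psmb5 is higher at 15 months in both diets and Psmb10 over Psmb7 in AL mice, without overlap, while Psmb9 over Psmb6 overlaps in all groups.

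Calls with age were found among other genes of the pathway. Of 58 such genes listed, 50 were tested, and with age in AL mice 11 were higher and 5 lower (16 called by limma, beside 20.6% of all genes), with a median log2 fold change of 0.02 over the 50. In CR mice 0 of 50 were called with age, beside 3.36% of all genes (14 at an unadjusted p under 0.05 by limma, beside 18.0%). At 15 months 2 of 50 were called between the diets, beside 0.742%, and at 5 months 0 of 50 (2 unadjusted, beside 4.65%). No gene, here or elsewhere, passed the test of the difference between the age effects, so none of these effects is shown to differ between the diets.

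The list of nonclassical heavy chains, relatives of H2-K1 and H2-D1 with more restricted peptides or ligands, held 8 of the 11 higher genes: 8 of 17 tested were higher with age in AL mice, beside 10.7% of all genes, and 0 were lower. The called genes named below lie on chromosome 17, and reads are divided among near copies, so the 8 calls cannot be counted as independent. The list also holds rows that GENCODE annotates as pseudogenes: H2-Bl and H2-T10 (polymorphic) and H2-K2 (transcribed, unprocessed). H2-T23 (Qa-1, which shows leader peptides to NK cell receptors) was at 1.36, 2.20, 3.42, 2.17 and 2.46 FPKM in AL mice at 5 months and at 3.71 to 7.28 FPKM (median 5.53) at 15 months, without overlap. On the log2 scale it rose by 1.25 (SE 0.30; limma adjusted p = 0.00643). H2-Bl rose by 1.93 (SE 0.44), H2-Q1 by 1.65 (SE 0.46), H2-K2 by 1.23 (SE 0.38) and H2-T22 by 0.71 (SE 0.23), with limma adjusted p-values between 0.00505 and 0.0326. The first 3 of these stayed under 2 FPKM in every mouse. In CR mice none of the 17 was called with age (7 at an unadjusted p under 0.05 by limma, beside 18.0% of all genes), with log2 fold changes of 0.87 for H2-T23, 0.75 for H2-Bl and 0.68 for H2-T22, and the median over the 17 genes was 0.44 in AL and 0.41 in CR mice. Over all genes it was 0.00 in each diet. All 8 calls were lost with the regional marker score described below as a covariate. In AL mice H2-T23 then gave 1.75 (SE 0.45, limma adjusted p = 0.108), H2-T22 1.10 (SE 0.34) and H2-Bl 0.81 (SE 0.61). Their SEs without the score were 0.30, 0.23 and 0.44. The neocortex and subiculum markers of that score were higher in the same comparison. Since the score did not overlap between the AL ages, age and region cannot be told apart in this fit.

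**Figure D5:**
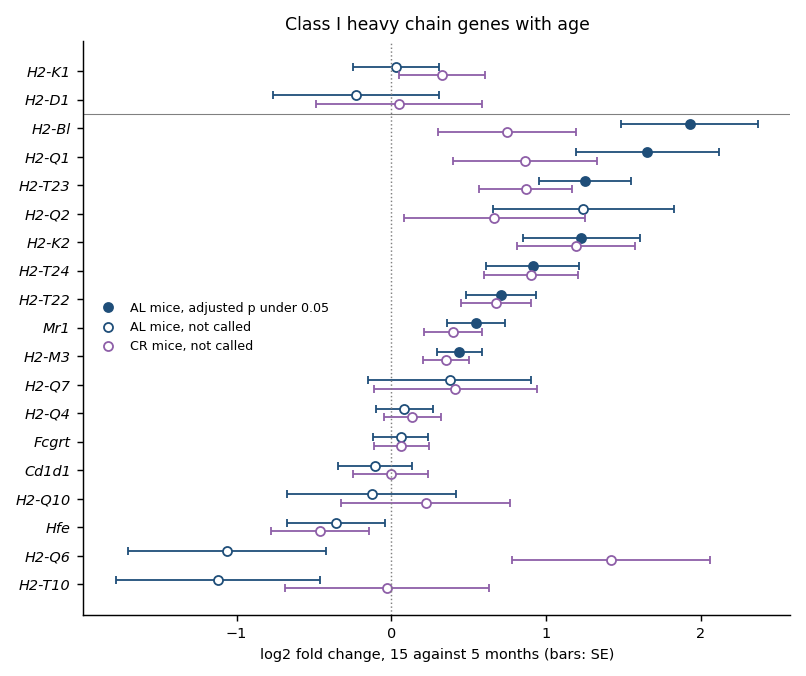
Log2 fold change between 15 and 5 months (x axis, bars are SE) of 17 nonclassical class I heavy chain genes (H2-Bl, H2-K2 and H2-T10 annotated as pseudogenes) and, above the line, H2-K1 and H2-D1, in AL (blue) and CR mice (purple); filled points passed limma at an adjusted p under 0.05. The 8 filled points are all in AL mice and above 0, from 0.44 for H2-M3 to 1.93 for H2-Bl, and the CR points of the same genes are also above 0.

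Among the loading and trimming factors, Tapbpl (TAPBPR, a tapasin relative that edits peptides) was higher with age in AL mice, from 2.63 to 3.53 FPKM at 5 months to 4.83 to 7.41 FPKM at 15 months, a log2 fold change of 0.997 (SE 0.14, limma adjusted p = 0.000303). In CR mice it differed by 0.33 with age (SE 0.14, limma adjusted p = 0.230). Pdia3 (ERp57), the disulfide enzyme of the loading complex, fell with age in AL mice by 0.27 on the log2 scale (SE 0.09, limma adjusted p = 0.0310). At 15 months Pdia3 was at 64.4 to 82.1 FPKM (median 71.0) in AL mice and at 83.2 to 111 FPKM (median 92.0) in CR mice, without overlap, and 0.424% of all genes separated in that direction. The log2 difference was 0.38 (SE 0.08, limma adjusted p = 0.0396). Calr, the chaperone calreticulin, was at 133 to 174 FPKM in AL and 169 to 256 FPKM in CR mice at that age (log2 difference 0.44, SE 0.10, limma adjusted p = 0.0418). The calls for Pdia3 and Calr depended on which mice entered: leaving out each library in turn left 0 to 3 pathway genes called.

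Of the 3 constitutive catalytic subunits 2 fell with age in AL mice, Psmb5 (above) and Psmb6 (by 0.33, SE 0.11, limma adjusted p = 0.0304), while none of 4 activator and assembly genes was called. Over all genes, 20.6% were called in that comparison and 10.7% were called higher. Of 12 class I transcription regulators, Rfxank, part of the complex that binds the X box, was higher (0.37, SE 0.10, limma adjusted p = 0.0158). Nlrc5, the class I transactivator, was low, at a mean of 0.121 FPKM over all mice. Of 8 interferon receptor and signalling genes tested, Ifnar1 was higher (0.20) and Ifngr2 (-0.40) and Jak1 (-0.20) were lower. For comparison, 0 of 8 class II genes (1 at an unadjusted p under 0.05 by limma, beside 35.2% of all genes) and 1 of 17 interferon-stimulated genes (Mx1, 0.66, SE 0.23, limma adjusted p = 0.0447) were called with age in AL mice, and none of either list in the other comparisons. At 5 months, 6 of the 17 interferon-stimulated genes were under an unadjusted p of 0.05 between CR and AL mice (by limma, beside 4.65% of all genes), with a median log2 difference of -0.30 over the list. At 15 months 3 of 17 were, near the 17.1% of all genes, with a median of -0.24.

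Markers of other cells and regions were also called with age, beside 20.6% of all genes in AL mice (10.7% higher) and 3.36% in CR mice. In AL mice 6 of 10 markers of neocortex and subiculum were higher, with summed levels of 83.9 to 130 FPKM at 5 months and 143 to 260 FPKM at 15 months. Of the 6 CA1 pyramidal cell markers 3 were lower (summed 216 to 473 and 189 to 276 FPKM), and of 11 choroid plexus markers 6 were lower in AL mice and 9 in CR mice. The choroid plexus markers summed to 40.0 to 365 FPKM in AL mice at 5 months and 3.97 to 26.9 FPKM at 15 months. In CR mice they summed to 134 to 2458 FPKM (median 195) at 5 months and 7.25 to 37.1 FPKM at 15 months. Dentate granule cell markers were lower for 2 of 5 genes in AL mice (summed 20.3 to 58.2 FPKM at 5 months and 4.22 to 38.6 FPKM at 15 months), oligodendrocyte markers for 1 of 6 (summed 1107 to 1726 and 546 to 1184 FPKM), and of 6 astrocyte markers 1 was higher and 2 were lower. Between the diets at 15 months, where Pdia3 and Calr were called, 0 of 5 dentate markers were called (2 at an unadjusted p under 0.05 by limma, beside 17.1% of all genes), with a median log2 difference of 1.38 and summed levels of 8.59 to 115 FPKM in CR mice. Markers of the meninges summed to 34.6 to 85.9 FPKM (median 36.4) in AL and 30.1 to 213 FPKM (median 139) in CR mice at 5 months. At 15 months they summed to 14.6 to 168 and 20.7 to 109 FPKM. Erythrocyte markers summed to 2.96 to 16.8 and 2.85 to 16.5 FPKM at 5 months, and to 0.764 to 13.6 and 1.29 to 17.1 FPKM at 15 months. The part of the dentate, oligodendrocyte, astrocyte, meningeal and erythrocyte markers in the results was not tested. No CA1 marker was at 0 in every mouse of a group. With a score of the regional markers as a covariate, 1 gene in all was called with age in AL mice and 0 of the 50 pathway genes. With the same covariate Tapbp in AL mice gave a log2 fold change of 0.32 (SE 0.12), and Psmb8 in CR mice 0.39 (SE 0.17), neither called. The ratio of Psmb8 to Psmb5 then rose by 0.41 (SE 0.21) in AL and 0.59 (SE 0.17) in CR mice, and that of Psmb10 to Psmb7 by 0.52 (SE 0.16) in AL mice.

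Microglial markers were lower for 1 of 12 genes (Tmem119) with age in AL mice and for 0 of 12 in CR mice, beside 20.6% and 3.36% of all genes called in either direction. Their summed level was 299 to 362 FPKM in AL mice at 5 months and 170 to 338 FPKM at 15 months. Over the 22 mice none of the 9 members passed with the microglial, endothelial or interferon-stimulated scores by r or by rho after adjustment over 27 relations. The strongest relation was that of B2m with the microglial score (r = 0.62, adjusted permutation p = 0.0697, rho = 0.56, adjusted permutation p = 0.185). For that pair r was 0.72 within groups and 0.37 without the 2 mice farthest from the median of the score. The 10 T and NK cell markers summed to between 0.133 and 1.04 FPKM in all mice, and of the receptors for class I molecules none passed the expression filter.

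The genes whose pattern over the 22 mice was most like the mean of the 9 members, of 13830 compared, were Cltb (r = 0.72), Bak1 (0.71), Dcaf11 (0.70), Poldip2 (0.70), Mpnd (0.69), Dgcr6 (0.69), Rell2 (0.69), Mvb12a (0.67), Fbxo2 (0.66) and Stx4a (0.66). These are descriptions over libraries that share their processing. H2-D1 held 53.9% of the summed variance of the members, and the correlations of the members with their mean ran from -0.12 for Psmb9 to 0.79 for H2-D1.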

How the data were processed

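RNA from CA1 microdissections of 22 mice was sequenced by the authors (poly(A) libraries, paired ends, a kit that does not mark strand). The deposited values are FPKM: the authors aligned reads to mm10 with TopHat, removed likely duplicates with Picard and ran Cufflinks with corrections for fragment bias and multiply mapped reads. Read counts could not be recovered (at most 20.1% of genes below 0.2 FPKM lay on a common ratio in any pair of libraries), so the depth behind a value is unknown and precision comes from the spread between mice. Median FPKM per library was 2.51 to 3.10, and 18281 to 19175 genes were above 0.

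Genes with a mean of at least 0.1 FPKM (16978 of 23361, all 9 members among them) were fitted as log2(FPKM + 0.1) in the 4 groups with limma 3.58.1 (R 4.3.3, trend), with Benjamini-Hochberg adjustment over all of them. Fold changes on this scale understate low genes. Member values and ratios were also compared by exact two-sided permutation tests, and correlations by 100000 permutations. The fits were tested on simulated data with independent noise and changes larger than any fitted for a member. Their power for changes of the size seen in the members was not examined. Coordinates are from GENCODE M21 and promoters from RefSeq. Groups follow the labels. Members, gene lists and tests were chosen with earlier results of these data known. Named genes were the members, at most 5 called genes per list, and the 10 most similar genes with a mean of at least 1 FPKM. Nlrc5, H2-M3 and H2-T10 were named after their values were seen. Same-numbered mice were not pairs: of 31 pairs 2 had deviations correlated above 0.1 (range -0.14 to 0.16). Alternatives were other pseudocounts, filters, scalings, covariates, a replicate block, separate fits and each library left out. NanoString values were not analysed here.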

Additional observations from a re-analysis of the deposited data

Results flagged for a closer look

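In 8 of 48 groups of 5 or 6 mice examined (9 genes and 3 ratios in 4 groups), the highest or lowest mouse stood far from the nearest other by Dixon's criterion. Normally distributed values meet it by chance in about 1 in 20 groups. The values here were not log-transformed, the ratios are not independent of the genes in them, and the share of all genes that meet it was not computed. The count is therefore not shown to exceed that of other genes. Mice carry the numbers of the labels, which start at 0.

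H2-K1 was at 4.15 FPKM in AL mouse 2 at 15 months, the lowest of 6, with the next at 8.04 FPKM. B2m was at 122 FPKM in CR mouse 2 at 15 months, the highest of 6, with the next at 82.7 FPKM. Tap2 was at 7.05 FPKM in CR mouse 4 at 5 months, with the next at 5.43 FPKM. Psmb8 was at 1.81 FPKM in CR mouse 3 at 5 months, the lowest of 5, with the next at 2.68 FPKM, and at 4.35 FPKM in AL mouse 1 at 15 months, with the next at 3.10 FPKM. Psmb9 was at 4.13 FPKM in CR mouse 4 at 15 months, with the next at 2.58 FPKM. Among the ratios, AL mouse 1 at 15 months had Psmb8 at 4.82% of Psmb5 (next 3.18%), and CR mouse 4 at 15 months had Psmb9 at 6.06% of Psmb6 (next 3.22%). The 3 ratio calls held with each mouse left out in turn. No member passed the test of a difference in age effect between the diets over all genes.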

How the results depend on the processing

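The count of called members stayed at 0 in all comparisons under the other pseudocounts, filters, scalings, covariates and separate fits, except for 1 with age in AL mice with a choroid plexus score as a covariate (Tapbp, 0.32, limma adjusted p = 0.0337) and 1 with age in CR mice without AL mouse 1 at 15 months (Psmb8), so that leaving out each library gave 0 to 1 there. The 3 ratio calls stayed at 3 with both other pseudocounts and with each library left out. With the region score as a covariate, a fit chosen for the ratios after seeing the data and made without a test, Psmb8 over Psmb5 with age in AL mice went from 0.67 to 0.41 (SE 0.21), and Psmb9 over Psmb6 with age gave -0.35 in AL and -0.32 in CR mice. Depth is unknown, so low genes such as the rarer heavy chains carry an error that was not measured. The cause of each change listed here was not tested.

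With age in AL mice, 3502 genes became 1 with the region score, 1665 with the choroid plexus score and 1725 with a microglia score. The 16 other pathway genes became 7 (quantile normalization), 0 (region), 7 (choroid plexus) and 7 (microglia), and 8 to 17 leaving out each library, with 8 without AL mouse 0 at 15 months and 10 without AL mouse 1 or 2 at 5 months. With age in CR mice, 570 genes became 304 (mean of at least 1 FPKM), 115 (region), 0 (choroid plexus) and 324 (separate fit), and 331 to 775 leaving out each library, with 331 without CR mouse 1 and 347 without CR mouse 4 at 5 months. The choroid plexus score did not overlap between the CR ages, so age and that score cannot be told apart in the fit. The 0 other pathway genes became 1 with quantile normalization, the replicate block, the region score and the microglia score, and 0 to 2 leaving out each library (2 without CR mouse 3 at 5 months or CR mouse 4 at 15 months). For CR over AL at 15 months, 126 genes became 77 (quantile), 323 (replicate block), 6 (region), 16 (microglia) and 0 (separate fit), and 15 to 732 leaving out each library, with 15 without AL mouse 0, AL mouse 4 or CR mouse 3, 732 without CR mouse 0 and 492 without CR mouse 5, all at 15 months. The 2 other pathway genes became 0 with the region score, the microglia score and the separate fit, and 0 to 3 leaving out each library (0 without AL mouse 1, 2 or 4 at 5 months, or AL mouse 0, 1, 2 or 4 or CR mouse 1, 2 or 3 at 15 months). At 5 months the 0 genes called became 1 without the trend, and 0 to 1 leaving out each library, as did the interaction. The replicate block gave the changes named here and no call of a member.

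Member log2 fold changes that changed sign were all uncalled. With libraries shifted to a common median, age in AL mice gave -0.017 for H2-K1 and -0.0041 for B2m. With quantile normalization it gave -0.025 for H2-K1 and -0.011 for Psmb8, and CR over AL at 15 months -0.025 for B2m. With the replicate block, H2-K1 gave -0.033 with age in AL mice and H2-D1 -0.10 in CR mice. With the region score, H2-D1 gave 0.62 with age in AL mice, Tap2 -0.16 in CR mice, B2m -0.029 for CR over AL at 15 months and H2-D1 -0.0071 at 5 months. With the choroid plexus score, which did not overlap between the CR ages, age in CR mice gave -0.30 for H2-D1 and 0.074 for Tapbp. With the microglia score, H2-K1 gave -0.0031 with age in AL mice, B2m -0.11 for CR over AL at 15 months, 0.045 at 5 months and -0.15 for the interaction, and Psmb9 -0.10 for the interaction.

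Leaving out each library in turn, age in AL mice ran from -0.15 to 0.22 for H2-K1, -0.029 to 0.14 for B2m and -0.70 to 0.094 for H2-D1. Age in CR mice ran from -0.24 to 0.37 for H2-D1, -0.052 to 0.11 for Tap2 and -0.25 to 0.013 for Psmb9. CR over AL at 5 months ran from -0.38 to 0.38 for H2-D1, -0.20 to 0.19 for H2-K1 and -0.0092 to 0.094 for Psmb10. CR over AL at 15 months ran from -0.12 to 0.079 for B2m and -0.11 to 0.0034 for Psmb10. The interaction ran from -0.047 to 0.75 for H2-D1 and -0.10 to 0.19 for Psmb9. Psmb9 over Psmb6 with age in CR mice ran from -0.12 to 0.16, and Psmb8 over Psmb5 for CR over AL at 15 months from -0.17 to 0.026.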

Other observations

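H2-T10, listed with the nonclassical heavy chains but annotated as a polymorphic pseudogene, was named here after its values were seen. It fell into separate levels. It was between 0.858 and 1.58 FPKM in 12 mice and between 4.16 and 9.24 FPKM in the other 10, with none in between. The higher level was found in 4 of 5 AL and 2 of 5 CR mice at 5 months, and in 2 of 6 AL and 2 of 6 CR mice at 15 months. With age in AL mice it differed by -1.12 on the log2 scale (SE 0.66, limma adjusted p = 0.232), against 0.71 for H2-T22 (SE 0.23).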
